A study of Mus musculus with 12 samples.

Results

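The miR-30 family guide strands are the 5 mature miRNAs miR-30a, miR-30b, miR-30c, miR-30d and miR-30e, taken by name and without the star that marks the passenger arm in the older nomenclature. They were 5 of the 269 assays that could be named among the 593 assays of the rodent TaqMan array, a pair of cards called A and B (TLDA RT-qPCR), and all 5 lay on card A. The 12 samples came from bone marrow of C57BL/6 mice and covered the stages LSK, promyelocyte, myelocyte and granulocyte, each as whole cell RNA, cytoplasmic RNA and nuclear RNA, with 1 sample for each stage and fraction. No genotype, agent or treatment was varied. LSK cells carry Sca1 and cKit and lack lineage markers, which makes them a mixture of stem cells and early progenitors, and the other stages follow in order of maturation toward the neutrophil granulocyte. All populations were sorted by flow cytometry with antibody panels, and the age and number of the animals are not given in the sources used here. The CT is the cycle at which the product of a well crosses a threshold, so a lower CT means more template, and 1 cycle stands for a 2-fold difference when amplification is complete. With 1 sample in each group there was no replicate spread and no test, and every difference below compares single samples.

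A miRNA guide strand is loaded into an Argonaute protein and pairs with mRNAs mainly through its seed, bases 2 to 8 from the 5′ end, which leads to decay or reduced translation of the paired mRNA. The opposite arm of the same hairpin, the passenger strand, is usually degraded. The miR-30 guides share one seed and differ toward the 3′ end, and miR-30a, miR-30d and miR-30e are commonly set apart from miR-30b and miR-30c by that 3′ part. The family is widely expressed, is best known from fibrosis, adipocyte differentiation and autophagy, and its miR-30a hairpin is the backbone of many short hairpin RNA vectors.

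The mature guides that could be taken from RefSeq (GRCm38.p6), for 3 of the 5 members, are shown with the seed in capitals because the assays of this family have to separate strands that are nearly the same.
miR-30a: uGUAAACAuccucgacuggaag
miR-30e: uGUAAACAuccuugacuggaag
miR-30c: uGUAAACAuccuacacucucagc
The first 12 bases were the same in all 3. miR-30a and miR-30e were identical at 21 of 22 positions and differed by C13U, where the base of miR-30a comes first and positions are counted from the 5′ end. miR-30c was identical to each of them at 17 of the first 22 positions. In the same annotation miR-30a lies at chr1:23272274-23272295 on the plus strand, and one copy of miR-30c, from the gene Mir30c-2, at chr1:23291714-23291736 next to it. The other copy, from Mir30c-1, lies at chr4:120769584-120769606 on the minus strand, beside miR-30e at chr4:120772660-120772681, and both fall inside the span of Nfyc, which encodes a subunit of the transcription factor NF-Y. Mir30b and Mir30d are likewise neighbours. The pairs that share a locus are therefore a with c, c with e, and b with d, while the assay for miR-30c reads both of its loci. The seed was also found in miR-384-5p, whose assay was under the highest listed CT of 40 in only 2 of the 12 samples, at 36.37 in cytoplasmic RNA of LSK and 35.57 in nuclear RNA of granulocytes.

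Every member was detected in every sample, with all 60 wells under a CT of 40. All 40 wells of whole cell and cytoplasmic RNA were under 30, the limit below which CT values were taken as reliable, against 12 of the 20 nuclear wells. The nuclear wells above 30 were those of miR-30d at all 4 stages, of miR-30a at all but the granulocyte stage, and of miR-30e in promyelocytes.

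miR-30b, encoded beside miR-30d, had a whole cell CT of 25.24 in LSK and 25.11 in promyelocytes, then 23.70 in myelocytes and 22.57 in granulocytes. miR-30c, made from its pair of loci, gave 24.87, 25.16, 23.98 and 22.86 at the same stages. Both differed little in CT between LSK and promyelocytes and were lower in CT at each later stage. miR-30e gave 26.37, 26.54, 25.84 and 25.06. miR-30a gave 27.15, 27.35, 26.23 and 25.80. Across the 4 whole cell samples the CT gap between these guides, whose sequences differ at 1 base, varied around its mean by a root mean square of 0.17 cycles. miR-30d had the highest CT of the family, at 28.04, 27.87, 27.12 and 26.32.

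In cytoplasmic RNA the CT of miR-30b was 23.99 in LSK, higher at 25.71 in promyelocytes, and then 23.94 in myelocytes and 23.20 in granulocytes. miR-30c gave 23.82, 25.79, 23.96 and 23.60. The promyelocyte sample had the highest CT for both. miR-30e gave 25.20, 27.15, 25.80 and 25.72 in the same order. miR-30a gave 25.80, 28.07, 26.25 and 26.56, and miR-30d gave 26.44, 28.60, 27.05 and 27.47. For these last guides LSK had the lowest cytoplasmic CT, whereas for miR-30b and miR-30c it was the granulocyte sample.

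The nuclear CT of miR-30b was 28.03 in LSK, 28.96 in promyelocytes, and lower later, with 27.54 in myelocytes and 26.07 in granulocytes. miR-30c gave 28.04, 28.44, 27.54 and 26.19. Both were lowest in CT in granulocytes by more than 1 cycle. miR-30e gave 28.97, 30.25, 29.00 and 27.99, and miR-30a gave 30.75, 31.60, 30.72 and 28.77. miR-30d gave 31.10, 32.39, 31.21 and 30.57. Granulocytes had the lowest and promyelocytes the highest nuclear CT for all 5 members.

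**Figure D1:**
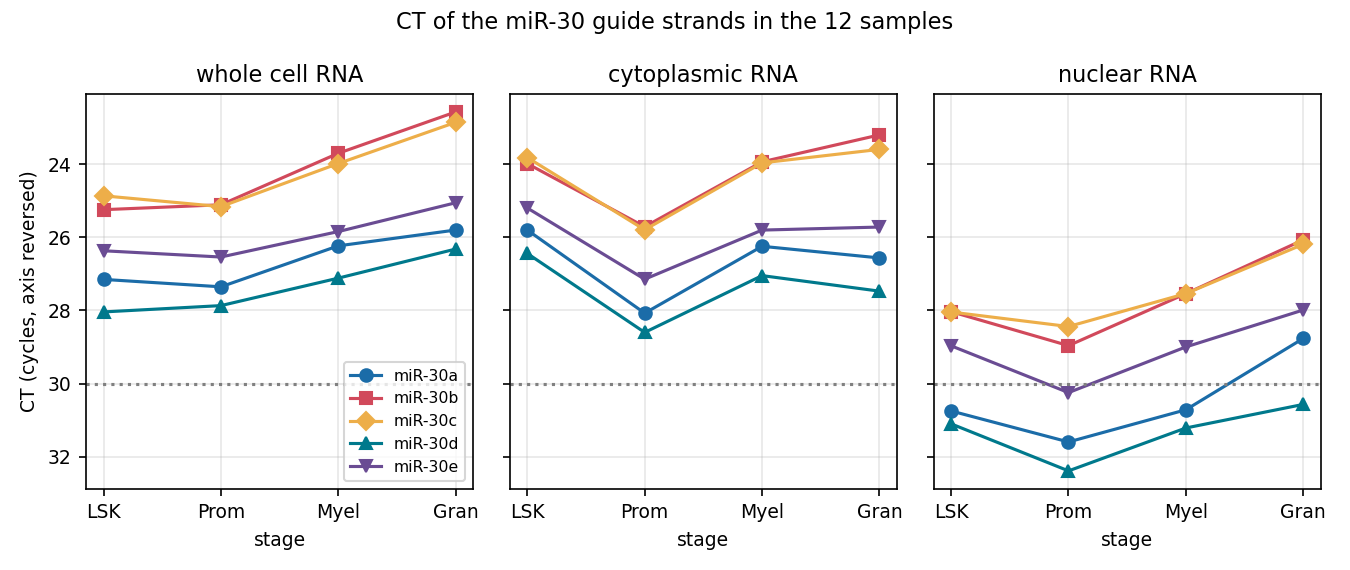
CT of each miR-30 guide strand (y axis, cycles, reversed so that more template is higher) at the stages LSK, promyelocyte (Prom), myelocyte (Myel) and granulocyte (Gran), 1 point per sample, with a dotted line at a CT of 30. The lines of miR-30b and miR-30c lie above those of miR-30e, miR-30a and miR-30d in every panel, and all members have their highest CT in promyelocytes in cytoplasmic and nuclear RNA.

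The order of the members was the same in all 12 samples apart from the leading pair. miR-30b and miR-30c had the lowest CT, followed by miR-30e, miR-30a and miR-30d. miR-30b was below miR-30c in 8 of the 12 samples and above it in the others, and they were at most 0.52 cycles apart. The gap between the lowest and the highest member ranged from 2.62 cycles in cytoplasmic RNA of LSK to 4.50 cycles in nuclear RNA of granulocytes. These are orders of CT: each assay has its own primers and efficiency, so they do not rank the members by number of molecules, and with single wells it cannot be said which neighbours in the order differ beyond their spread. Whether the assay of one member also reads another was not tested.

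The stage differences are given as log2 changes. For whole cell RNA the shift in the mean of the 3 assays at the end of card B was subtracted, and the cytoplasmic and nuclear changes are plain CT differences. From promyelocytes to granulocytes in whole cell RNA, miR-30b was higher by a log2 change of 2.11 and miR-30c by 1.88. miR-30a was higher by 1.12, miR-30d by 1.12 and miR-30e by 1.06. All 5 members were thus 2-fold or more higher in granulocytes, where 52.8% of the 123 named assays under a CT of 30 in at least one of the samples were so. The median of the members was 1.12 and that of all named assays, the members among them, was 1.06. miR-30a, miR-30d and miR-30e were close to the middle of the named assays, and 74.8% of these changed by less than miR-30b and 68.3% by less than miR-30c. Scaled to the mean CT of all named assays, miR-30b at 1.61 and miR-30c at 1.38 were the 2 of the 5 members past a 2-fold difference, and 39.8% of the named assays were then past it as well. Here and below, the means of all named assays, or of those on card A, used assays under a CT of 30 at all 4 stages. In nuclear RNA that limit was 35.

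Under the main scaling the difference arose mostly between promyelocytes and myelocytes. At that step miR-30b was higher by a log2 change of 1.42, miR-30c by 1.19 and miR-30a by 1.13 in whole cell RNA, with 42.0% of 112 named assays 2-fold or more higher. miR-30d at 0.76 and miR-30e at 0.71 stayed short of 2-fold and near the median of the named assays, which was 0.75. From myelocytes to granulocytes no member reached 2-fold, against 10.8% of 120 named assays that were 2-fold or more higher. miR-30b and miR-30c were higher by 0.69 each, miR-30d by 0.36 and miR-30e by 0.35, while miR-30a differed by -0.01. The median of the members at this step was 0.36 beside 0.07 for the named assays. Scaled to the named assays of card A, the medians of the members at these successive steps were 0.33 and 0.36, so the larger share of the earlier step rests on the scaling. With the mean of all named assays or of those on card A no member passed 2-fold at the earlier step, beside 29.5% and 25.9% of the named assays. Without scaling miR-30b and miR-30c passed it at the later step, both at 1.13, beside 28.3%.

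From LSK to promyelocytes the members lay below the middle of the named assays. Their whole cell log2 changes were -0.54 for miR-30c, -0.45 for miR-30a, -0.42 for miR-30e, -0.11 for miR-30b and -0.08 for miR-30d, and without scaling miR-30b and miR-30d turned to 0.13 and 0.17. None was 2-fold lower, as 17.3% of 104 named assays were. The median of the members was -0.42 and that of the named assays 0.43. Over the whole course from LSK to granulocytes miR-30b was higher by 2.0, miR-30c by 1.33, miR-30d by 1.04, miR-30a by 0.67 and miR-30e by 0.64. That put 3 of 5 members past 2-fold, where 55.6% of 124 named assays were higher by that much, and the median of 1.04 was below the 1.31 of the named assays. Scaled to the mean CT of all named assays, only miR-30b stayed past 2-fold over this course, at 1.16, beside 41.1% of the named assays. miR-30a and miR-30e then turned to -0.16 and -0.20. None passed 2-fold with card A scaling, beside 35.5% of the named assays, and all 5 did without scaling, beside 68.5%.

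**Figure D2:**
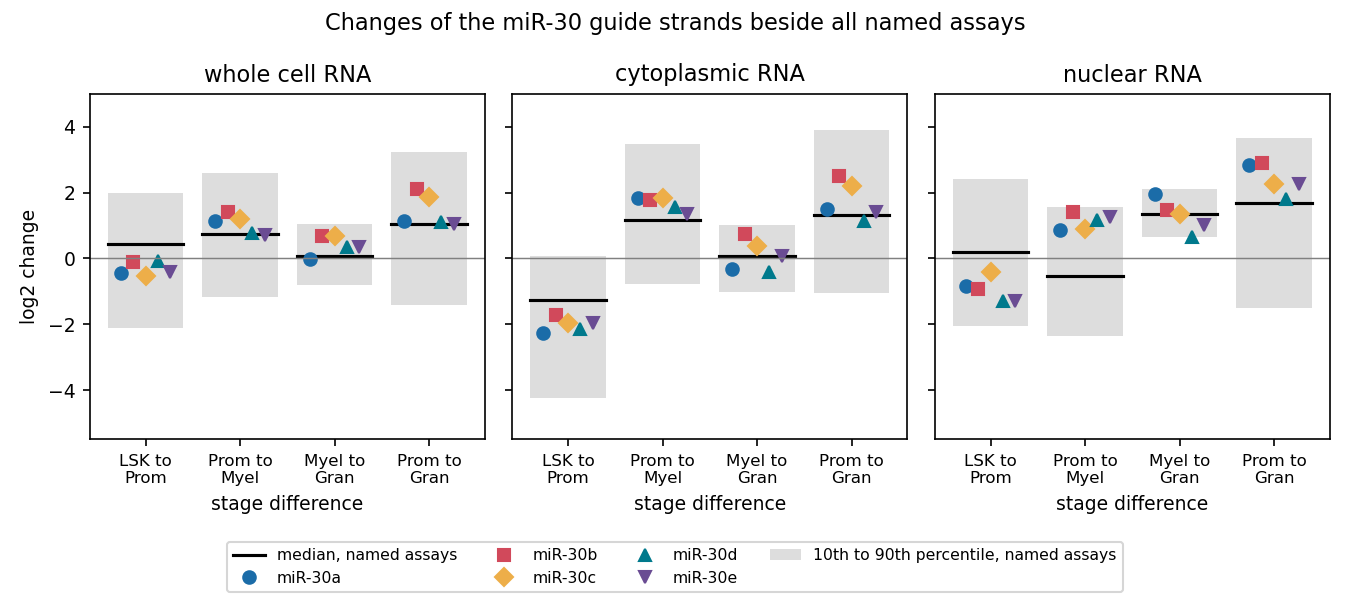
Log2 change (y axis) of each guide strand between stages (x axis) in whole cell, cytoplasmic and nuclear RNA, beside the 10th to 90th percentile (grey) and the median (black line) of the named assays under a CT of 30 in at least one of the samples compared. From promyelocytes to granulocytes miR-30b and miR-30c stand above the median line in whole cell and cytoplasmic RNA, and from LSK to promyelocytes all members stand below it in all fractions.

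The cytoplasmic samples read the same stages in another RNA fraction. From promyelocytes to granulocytes miR-30b was higher by a log2 change of 2.51, miR-30c by 2.20, miR-30a by 1.51, miR-30e by 1.43 and miR-30d by 1.13. All 5 were 2-fold or more higher, against 58.2% of 110 named assays, and the median of the members was 1.51 beside 1.31 for the named assays. Scaled to the named card A assays, 1 of the 5 was still past 2-fold, miR-30b, beside 31.8% of the named assays. With the 3 assays at the end of card B as reference none was, beside 8.18% of the named assays, and the median of the members turned to -1.76. The mean CT of those assays fell by 3.27 cycles between these cytoplasmic samples.
From LSK to promyelocytes all 5 members were 2-fold or more lower, from -1.73 for miR-30b to -2.27 for miR-30a, and so were 64.0% of 111 named assays, whose median was -1.26. From promyelocytes to myelocytes all 5 were 2-fold or more higher, from 1.34 for miR-30e to 1.83 for miR-30a and miR-30c, with 54.5% of 110 named assays. At both steps the count was 0 of 5 with card A scaling and with the reference from the end of card B. The shares of the named assays were then 23.4% and 16.2% at the first of these steps and 28.2% and 17.3% at the second.

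In nuclear RNA the changes from promyelocytes to granulocytes were 2.89 for miR-30b, 2.83 for miR-30a, 2.26 for miR-30e, 2.25 for miR-30c and 1.82 for miR-30d. All 5 were 2-fold or more higher, where 58.1% of 62 named assays were, and the median of the members was 2.26 beside 1.69. miR-30d was above a CT of 30 in both nuclear samples and is outside those 62 assays. With card A scaling only miR-30a at 1.36 and miR-30b at 1.42 passed 2-fold, beside 38.7% of the named assays. At the step from promyelocytes to myelocytes the members were higher by 0.88 to 1.42, with 3 of 5 past 2-fold and 29.8% of 47 named assays, whose median was -0.52. miR-30a and miR-30d are outside those 47 assays, and miR-30d, at 1.17, is among the 3 counted. With the 3 assays at the end of card B as reference all 5 passed, beside 46.8% of the 47 named assays. From myelocytes to granulocytes 4 of 5 members were 2-fold or more higher, as were 78.9% of 57 named assays, of which miR-30d is not one. With card A scaling none was, beside 7.02% of the named assays, and miR-30d and miR-30e turned to -0.60 and -0.23.

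Within a sample the CT of one member minus that of another does not depend on any scaling. It does not depend on the RNA input either where both assays amplify with the same efficiency, which was not tested. The mean CT of miR-30a, miR-30d and miR-30e exceeded that of miR-30b and miR-30c by 2.13 cycles in whole cell RNA of LSK, by 2.12 in promyelocytes, by 2.56 in myelocytes and by 3.01 in granulocytes. In cytoplasmic RNA the gap was 1.91, 2.19, 2.41 and 3.19 cycles in the same order. The nuclear gap was 2.23, 2.71, 2.77 and 2.98 cycles. It was widest in granulocytes in all 3 fractions. From promyelocytes to granulocytes it widened by 0.89 cycles in whole cell, by 1.0 in cytoplasmic and by 0.27 in nuclear RNA, where several wells of miR-30a, miR-30d and miR-30e were above a CT of 30. Leaving out any 1 member left the whole cell value between 0.78 and 1.01.

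**Figure D3:**
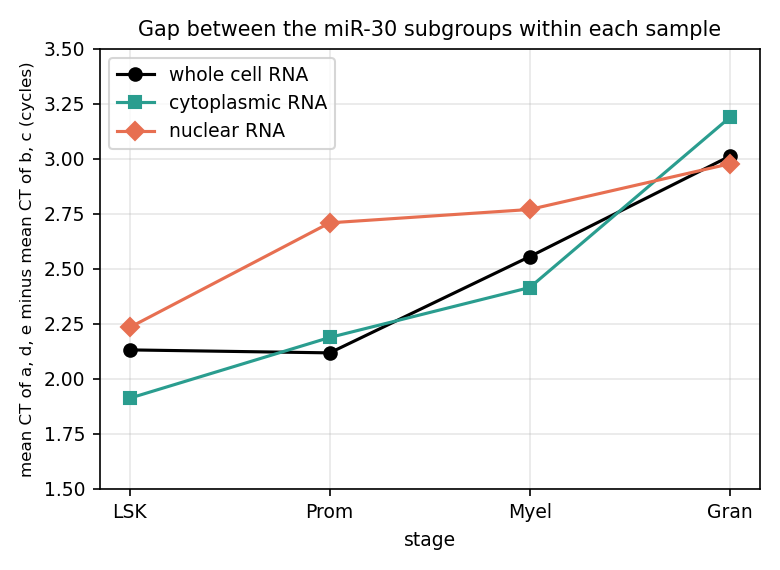
Mean CT of miR-30a, miR-30d and miR-30e minus mean CT of miR-30b and miR-30c (y axis, cycles, not starting at 0) by stage, 1 point per sample and 1 line per fraction. The gap reaches 2.98 to 3.19 cycles in granulocytes in all fractions, from 1.91 to 2.23 cycles in LSK.

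The likeness of any pair was measured as the root mean square of their CT difference over the 12 samples after its mean was removed, so that 0 stands for parallel courses. Over all 12 samples miR-30b and miR-30c were the most alike of the 10 pairs at 0.26 cycles, although they come from different loci. miR-30b and miR-30d, which are neighbouring genes, were the least alike at 0.60 cycles. The locus pair of miR-30c and miR-30e stood at 0.35 and that of miR-30a and miR-30c at 0.39. miR-30a and miR-30d, on different chromosomes, stood at 0.36, and miR-30a and miR-30e, whose sequences differ at 1 base, at 0.43. Between granulocytes and promyelocytes miR-30b gained on its neighbour miR-30d by 0.99 cycles in whole cell, 1.38 in cytoplasmic and 1.07 in nuclear RNA. Over the 4 whole cell samples alone the order of the pairs was another. miR-30d with miR-30e at 0.17, miR-30a with miR-30e at 0.17 and miR-30a with miR-30d at 0.18 were then more alike than miR-30b with miR-30c at 0.27, and miR-30b with miR-30e was the least alike at 0.54.

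**Figure D4:**
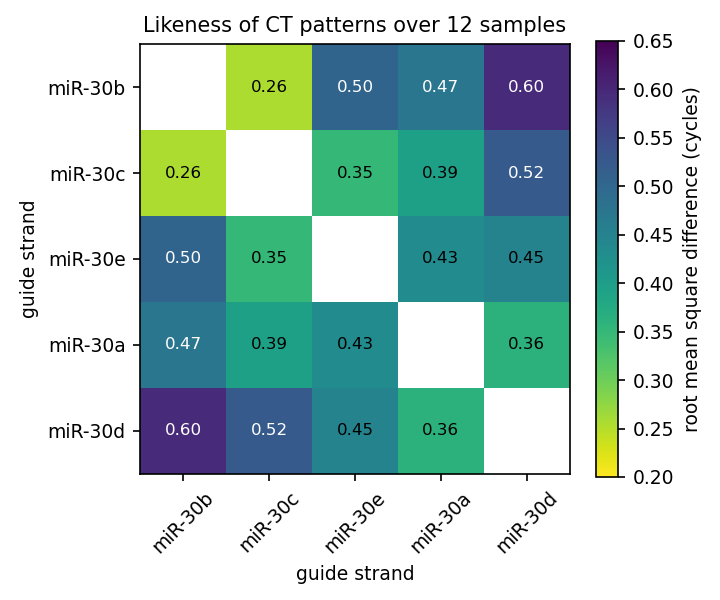
Root mean square difference of centred CT over 12 samples (colour and printed value, cycles) for the 10 pairs of guide strands on both axes. The lowest value, 0.26, belongs to miR-30b with miR-30c and the highest, 0.60, to miR-30b with miR-30d.

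Set against the 110 other named assays that were under a CT of 40 in all 12 samples, miR-30b was most like miR-140 at 0.24 cycles and miR-484 at 0.25, with miR-30c at rank 3. Its neighbour miR-30d came at rank 19. miR-30c was most like miR-30b, followed by miR-24 at 0.33 and miR-29a at 0.34. miR-29a was also the nearest assay to miR-30a at 0.30 and to miR-30e at 0.25. miR-30a had miR-30d and the passenger arm miR-30e* next. miR-30d was nearest to miR-93* at 0.34, then to miR-30a and miR-30e*. miR-30e had miR-24 and miR-328 next and no other member before rank 4. These ranks use samples that share fractions and cards. Over the 4 whole cell samples alone, the nearest other member came at rank 5 for miR-30b, rank 6 for miR-30c and rank 4 for miR-30d, while miR-30e had miR-30d at rank 2 and miR-30a at rank 3.

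Other families were read in the same way from promyelocytes to granulocytes in whole cell RNA. The miR-26 guides miR-26a and miR-26b were both 2-fold or more higher, as were 52.8% of the named assays, with a median log2 change of 2.54. miR-29a at 0.91 and miR-29c at 1.97 were the members of the miR-29 family under a CT of 30. The 6 named let-7 guides, from let-7a to let-7i, had a median of -1.02, with none 2-fold higher and 3 that were 2-fold lower, where 21.1% of the 123 named assays were 2-fold lower. The let-7 median was -0.59 without scaling, with 0 of 6 guides 2-fold lower (10.6% of the named assays) and 1 higher (60.2%). It was -1.52 with scaling to the mean CT of all named assays, with 4 guides lower (29.3%) and none higher (39.8%). With those settings the miR-26 median was 2.97 and 2.04, and the miR-29 median 1.87 and 0.94. The median of the miR-30 guides, 1.12, lay between those of the let-7 family and the miR-29 family, the latter at 1.44.

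Passenger arms were named for miR-30a, miR-30b and miR-30e, and 2 of them are shown because they too differ by 1 base, with the seed in capitals.
miR-30a*: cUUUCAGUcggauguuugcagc
miR-30e*: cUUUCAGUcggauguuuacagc
The difference was G18A, with the base of miR-30a* first. miR-30e* had a whole cell CT of 28.14 in LSK and 27.72 in promyelocytes, then 26.87 in myelocytes and 26.16 in granulocytes. miR-30a* gave 29.19, 29.96, 30.32 and 29.00. The CT of miR-30e* fell at each step from promyelocytes on, as that of its guide did. The CT of miR-30a* rose from promyelocytes to myelocytes and then fell to granulocytes. At that last step its log2 change was 0.88, beside -0.01 for its guide. From promyelocytes to granulocytes the log2 change was 1.13 for miR-30e* and 0.53 for miR-30a* in whole cell RNA, 1.06 and -0.32 in cytoplasmic RNA, and 2.90 and 0.09 in nuclear RNA.

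The CT of miR-30a* exceeded that of miR-30a by 2.60 cycles in whole cell RNA of promyelocytes and by 3.20 in that of granulocytes. In cytoplasmic RNA this went from 2.09 to 3.92 cycles and in nuclear RNA from 0.87 to 3.61. For miR-30e* the excess was 1.18 and 1.10 cycles in whole cell, 0.78 and 1.15 in cytoplasmic, and 2.47 and 1.83 in nuclear RNA. Guides were read on card A and passenger arms on card B, and the nuclear CT of miR-30a* was above 32 at every stage. miR-30b* was listed at 40 in 4 of the 12 samples and was otherwise between 33.15 and 36.06, so no change is given for it.

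The nuclear:cytoplasmic ratio of each member was computed as 2 raised to the cytoplasmic minus the nuclear CT, divided by 3. In LSK it was 0.0108 for miR-30a, 0.0132 for miR-30d, 0.0178 for miR-30c, 0.0201 for miR-30b and 0.0245 for miR-30e. In promyelocytes it ran from 0.0242 for miR-30d to 0.0533 for miR-30c, and in myelocytes from 0.0150 for miR-30a to 0.0364 for miR-30e. In granulocytes the ratio was 0.0390 for miR-30d, 0.0456 for miR-30b, 0.0552 for miR-30c, 0.0692 for miR-30e and 0.0725 for miR-30a. Each member had its highest ratio in granulocytes and its lowest in LSK, though for miR-30c the promyelocyte ratio came close to that of granulocytes. For the 3 assays at the end of card B, the mean cytoplasmic CT was above the nuclear one by 3.59 cycles in LSK. At the later stages, in order, it was above by 5.68, 2.60 and 1.03 cycles. How far the stage course of the ratio goes with that shift was not tested. The paper proposes that low nuclear levels come mostly from slight contamination with cytoplasmic miRNAs.

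All 5 members were below a ratio of 0.1 at every stage. In LSK and at the myelocyte stage 3 of them had a nuclear CT under 30, while 2 did in promyelocytes and 4 in granulocytes. Among named assays with a nuclear CT under 30, the same held for 84.4% of 45 in LSK and for 72.5% of 40 at the promyelocyte stage. It held for 86.5% of 37 in myelocytes and for 89.5% of 57 at the granulocyte stage. These counts rest on the divisor of 3. Without it 5 members were below 0.1 in LSK, beside 77.8% of the named assays, and 2 in promyelocytes, beside 15.0%. At the myelocyte stage 4 members were then below 0.1, beside 67.6% of the named assays, and in granulocytes 0, beside 12.3%, the members running from 0.117 to 0.217. The median ratio of the members was 0.0178, 0.0350, 0.0274 and 0.0552 in order of stage, beside 0.0213, 0.0534, 0.0266 and 0.0568 for those named assays. A higher ratio in granulocytes than in LSK was therefore also seen in the named assays as a whole. From LSK to granulocytes the members moved unequally against that median. miR-30a was at 0.507 times the median in LSK, where its nuclear CT of 30.75 put it outside the assays the median was taken over, and at 1.28 times in granulocytes. miR-30b went the other way, from 0.945 to 0.802 times, with its lowest value, 0.655 times, in promyelocytes. miR-30c was at 0.836 and 0.972 times and miR-30e at 1.15 and 1.22 times. miR-30d stayed between 0.452 and 0.697 times the median, with a nuclear CT above 30 at every stage. The labels give 100 ng of RNA for each reverse transcription, while the study's text refers to cell equivalents. The absolute level of the ratio depends on which applies, and its comparison between stages can depend on it as well.

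**Figure D5:**
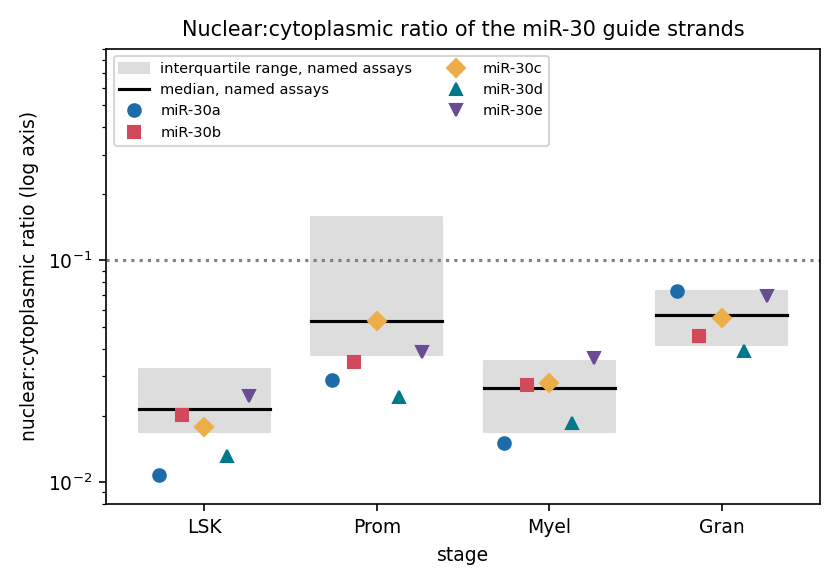
Nuclear:cytoplasmic ratio (y axis, log scale) of each guide strand by stage, 1 point per member, beside the interquartile range (grey) and median (black line) of the named assays with a nuclear CT under 30, and a dotted line at 0.1. All points lie under 0.1, with the highest in granulocytes, between 0.0390 and 0.0725, and this position under the line rests on the divisor of 3.

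The stage labels were checked with miRNAs known to mark cell types. Whole cell CT of miR-223, abundant in the neutrophil lineage, went from 23.98 in LSK to 16.43 in granulocytes, and the stem and progenitor miRNAs miR-126-3p and miR-125b-5p had their lowest CT in LSK, at 24.34 and 28.87. Of the 9 marker miRNAs listed, 5 could be named. miR-150, abundant in mature lymphocytes, had whole cell CT values of 25.13, 28.78, 25.60 and 25.84 in order of stage, with its highest CT in promyelocytes, as for miR-30a, miR-30c and miR-30e but not miR-30b and miR-30d in that fraction, and miR-1, of muscle, was at 33.41 or above. The part of other cells in the changes of the miR-30 guides was not tested, and in RNA of a sorted population fewer cells of a type and less of a miRNA per cell cannot be told apart.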

How the data were processed

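The authors ran the samples on the rodent TaqMan array, cards A and B, and deposited raw CT values without normalization. The labels give 100 ng of RNA per sample, while the study's text refers to cell equivalents for the fractions. Undetermined wells are listed at 40. Each assay was read in 1 well per sample, so the precision of a CT is unknown. The 593 numbered assays were named by unique matches of their CT values to the study's supplementary tables, within 0.0005 cycles for the fractions and 0.002 for whole cell differences. Those tables were read as text from page images, and 9 of 257 entries matched no assay directly. All 5 members were matched through the fractions.

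Log2 changes are CT differences. In whole cell RNA the shift in the mean of the 3 assays at the end of card B was subtracted, the constant contained in the study's own whole cell values, which rise by 1.71 units per cycle and are thus on another log scale. The divisor of 3 in the ratio is that of the study's ratios. Background counts used named assays under a CT of 30 in at least one of the samples compared. With no replicates, an alternative value is said to have moved where it differs by more than 0.469 cycles, the largest median disagreement between centred whole cell and cytoplasmic changes. Named besides the members were their passenger arms, the 3 most similar assays of each member, and counts over the let-7, miR-26 and miR-29 families; miR-384-5p was added for its seed. The members and lists were chosen with earlier results of these data known. Sequences and gene order came from RefSeq GRCm38.p6. Alternatives changed the scaling, CT limit, fold limit, fold per cycle, ratio divisor, members and matching tolerance. The means of all named assays, or of those on card A, kept assays under a CT of 30 at all 4 stages of the fraction. In nuclear RNA that limit was 35. Steps were tested on simulated data. Python 3.11.15, numpy 2.4.6, pandas 2.3.3 and matplotlib 3.10.9 were used. The study's mRNA arrays and single assays were not analysed here.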

Additional observations from a re-analysis of the deposited data

Results flagged for a closer look

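Some members went up in one fraction and down in another between the same stages. With 1 sample per group these differences were not tested. From LSK to granulocytes miR-30a had a log2 change of 0.67 in whole cell and -0.76 in cytoplasmic RNA, 1.44 apart. miR-30d had 1.04 and -1.03, 2.07 apart, and miR-30e had 0.64 and -0.52, 1.16 apart. In nuclear RNA these 3 guides were higher by 1.98, 0.53 and 0.98. Scaled to the mean CT of all named assays, the whole cell changes of miR-30a, miR-30d and miR-30e were -0.16, 0.21 and -0.20. Scaled to named card A assays the nuclear changes of miR-30d and miR-30e were -0.92 and -0.47, and with card A scaling the whole cell change of miR-30d was 0.0011. The opposite directions of whole cell and cytoplasmic RNA thus depend on the scaling of the whole cell values for miR-30a and miR-30e, and nearly so for miR-30d. With card A scaling nuclear and cytoplasmic RNA stayed opposite for miR-30a, at 0.54 and -0.68, with an LSK nuclear CT of 30.75. With the 3 assays at the end of card B they were at 3.13 and -2.18, and all members were then opposite. Those assays themselves shifted by 1.41 cycles in cytoplasmic and by -1.15 in nuclear RNA, so that setting does not set miR-30a apart. Over 71 named assays under a CT of 30 in all 4 samples, the whole cell change exceeded the cytoplasmic change by a median of 1.18, so miR-30a and miR-30e were near that shift and miR-30d beyond it. From LSK to myelocytes 4 of the 5 members were higher in whole cell and lower in cytoplasmic RNA. miR-30a had log2 changes of 0.68 and -0.44, 1.13 apart, and miR-30c had 0.65 and -0.15, 0.79 apart. miR-30d had 0.69 and -0.61, 1.29 apart, and miR-30e had 0.29 and -0.60, 0.89 apart. Over 73 named assays the median difference was 1.22. Scaled to the mean CT of all named assays the whole cell changes of these 4 guides were -0.17, -0.20, -0.16 and -0.56, so they were no longer opposite. From myelocytes to granulocytes miR-30d had a log2 change of 0.36 in whole cell and -0.42 in cytoplasmic RNA, 0.78 apart, where the median of 96 named assays was -0.17.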

How the results depend on the processing

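No paired analysis was possible because the groups compared share fewer than 2 replicate numbers, each stage and fraction having 1 sample. A fit that takes fractions or stages as replicates was not run. Counts of members 2-fold or more higher (or lower where said) are given with the share of all named assays in parentheses. From promyelocytes to granulocytes in whole cell RNA the count went from 5 (52.8%) to 2 with scaling to the mean CT of all named assays (39.8%) or of the named card A assays (32.5%), or with a fold limit of 3 (39.0%), the 2 being miR-30b and miR-30c. With the mean of all named assays and of those on card A, the whole cell count went from 3 (42.0%) to 0 (29.5%) and 0 (25.9%) for promyelocytes to myelocytes and from 3 (55.6%) to 1 (41.1%) and 0 (35.5%) for LSK to granulocytes. Without scaling it went from 3 to 5 (68.5%) for LSK to granulocytes and from 0 (10.8%) to 2 (28.3%) for myelocytes to granulocytes. With card A scaling and with the last 3 assays of card B, the cytoplasmic count went from 5 (64.0%) to 0 (23.4%) and 0 (16.2%) for LSK to promyelocytes (lower), from 5 (54.5%) to 0 (28.2%) and 0 (17.3%) for promyelocytes to myelocytes, and from 5 (58.2%) to 1 (31.8%) and 0 (8.18%) for promyelocytes to granulocytes. The nuclear count with card A scaling went from 5 (58.1%) to 2 (38.7%) for promyelocytes to granulocytes and from 4 (78.9%) to 0 (7.02%) for myelocytes to granulocytes, and with the last 3 assays from 3 (29.8%) to 5 (46.8%) for promyelocytes to myelocytes. These nuclear counts are out of all 5 members. miR-30d is outside the named assays of each of these shares, and miR-30a outside those of promyelocytes to myelocytes. With the mean of all named assays and of those on card A, the median change of the members was 0.62 and 0.32 for promyelocytes to granulocytes, and 0.62 and 0.33 for promyelocytes to myelocytes. With card A scaling the median from promyelocytes to granulocytes was 0.17 in cytoplasmic and 0.79 in nuclear RNA. miR-30d then turned to -0.22 in cytoplasmic RNA, and miR-30d and miR-30e turned to -0.60 and -0.23 from myelocytes to granulocytes in nuclear RNA. With the last 3 assays of card B the nuclear median was 3.65 and the cytoplasmic median reversed to -1.76. The cytoplasmic values were then -1.76, -0.75, -1.07, -2.14 and -1.84 for miR-30a to miR-30e. At single steps miR-30b turned to 0.13 from LSK to promyelocytes, and miR-30d and miR-30e to -0.12 and -0.33 from promyelocytes to myelocytes. From myelocytes to granulocytes miR-30b, miR-30c and miR-30e turned from 0.74, 0.37 and 0.08 to -0.85, -1.22 and -1.51. Those 3 assays themselves shifted by 3.27 cycles between the cytoplasmic samples. The widening between miR-30b with miR-30c and the other members was 0.27 in nuclear RNA. Without the divisor the median ratios were 0.0535, 0.105, 0.0822 and 0.166 from LSK to granulocytes, and the members under 0.1 went from 5 to 2 in promyelocytes and from 5 to 0 in granulocytes. The 53 other alternatives of the main results stayed within the tolerance, or within 1.5 times for a count. For single members, their ranks and the background share, 189 values did so, while 114 moved and 10 reversed. Of the 300 single member changes under an alternative, 42 had the other sign than the main value, and in 10 of these the main value was 2-fold or more. Results rest on 1 well per assay, and those for miR-30a and miR-30d in nuclear RNA lie mostly above a CT of 30.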
